A study of Mus musculus with 64 samples.

Results

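The circadian clock repressors of the mouse colon are described here by the transcripts of 10 genes: Per1, Per2, Per3, Cry1, Cry2, Nr1d1, Nr1d2, Ciart, Bhlhe40 and Bhlhe41. They were chosen by name from the 35534 genes listed in each of 2 deposited tables, and each name matched 1 gene in both. In the molecular clock, the transcription factors BMAL1 and CLOCK (or NPAS2) bind E-boxes and activate the Per and Cry genes, whose proteins return to the nucleus and block BMAL1-CLOCK. REV-ERBα and REV-ERBβ, the nuclear receptors encoded by Nr1d1 and Nr1d2, repress Bmal1 (Arntl) through ROR elements, and CIART (CHRONO) and the bHLH proteins DEC1 (Bhlhe40) and DEC2 (Bhlhe41) also act against BMAL1-CLOCK. In the intestine this clock runs in epithelial, muscle and immune cells and takes cues from feeding and from the microbiota.

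The samples were whole colon of wild-type Swiss Webster mice, 8 to 12 weeks old, kept in 12 h of light and 12 h of dark on standard chow. Mice were either specific pathogen free (SPF), colonised by bacteria but without listed pathogens, or germ free (GF), with none. Each mouse received intraperitoneal injections of 100 µl PBS, alone or with 2.5 mg vancomycin, an antibiotic against Gram-positive bacteria, given 2 times daily over 3 days with a final dose on day 4. Colons carry zeitgeber times (ZT, hours counted from lights on) of 5, 11, 17 or 23, so that ZT5 and ZT11 fall in the light and ZT17 and ZT23 in the dark. The 2 statuses, 2 treatments and 4 times give 16 groups of 4 libraries, 64 in all. GF mice were moved from isolators to sealed cages for the treatment, so the GF groups share that handling, and the injections were shared by every group.

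Levels are CPM, a gene's counts scaled to a common library total, with TMM scaling within a table, and the 2 tables were not compared in level. Total estimated counts ran from 10044032 to 13615804 in the SPF libraries and from 10513966 to 15736087 in the GF libraries, and within the GF table from 12073643 to 15736087 at ZT5 and ZT11 and from 10513966 to 13232615 at ZT17 and ZT23. All 10 genes passed the filter on low counts in both tables. Ciart had the lowest single estimated count, 8.515 in an SPF library, and Bhlhe41 the next, 20.49 in a GF library. In bulk tissue, fewer cells of a type and less RNA per cell cannot be told apart. The summed CPM of 10 smooth muscle genes had medians in SPF colon after PBS of 14300 at ZT5, 19400 at ZT11, 12600 at ZT17 and 7590 at ZT23. After vancomycin these medians were 9350, 19900, 11900 and 8230. No smooth muscle or epithelial marker was at 0 throughout a group, and the GF libraries differed widely in markers of the distal colon, from 7.18 to 395 summed CPM within GF PBS ZT5 alone. The GF treatments also differed in 4 Y-linked genes (Uty, Kdm5d, Eif2s3y and Ddx3y): their mean log2 CPM was 1.55 or lower in 2 of 16 libraries after PBS (replicate 4 at ZT17 and ZT23) and in 9 of 16 after vancomycin (ZT5 replicates 1 to 3, ZT11 replicate 1, ZT17 replicates 1 and 2, ZT23 replicates 1 to 3), against 5.17 or higher in every other library of both tables.

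Promoter sequences show which clock elements sit next to the starts of these genes. RefSeq promoters (GRCm38.p6) were matched for 8 of the 10 genes, and Per2 and Bhlhe40 were not matched. The 4 below belong to genes that changed with time in all 4 sets of mice, and each is the 250 bases before the start, 5′ to 3′ on the gene's strand, with motif matches in capitals. Nr1d2 also changed with time in all 4 sets, but its promoter held no motif match and is not printed. Per1 lies at chr11:69098699-69098948 on the plus strand, Per3 at chr4:151044666-151044915, Nr1d1 at chr11:98775378-98775627 and Ciart at chr3:95882229-95882478, these last 3 on the minus strand.
Per1: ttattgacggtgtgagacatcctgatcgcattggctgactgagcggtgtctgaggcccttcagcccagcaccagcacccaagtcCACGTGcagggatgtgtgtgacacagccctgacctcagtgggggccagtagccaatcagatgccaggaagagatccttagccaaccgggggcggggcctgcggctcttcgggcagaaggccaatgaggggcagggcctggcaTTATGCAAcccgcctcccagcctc
Per3: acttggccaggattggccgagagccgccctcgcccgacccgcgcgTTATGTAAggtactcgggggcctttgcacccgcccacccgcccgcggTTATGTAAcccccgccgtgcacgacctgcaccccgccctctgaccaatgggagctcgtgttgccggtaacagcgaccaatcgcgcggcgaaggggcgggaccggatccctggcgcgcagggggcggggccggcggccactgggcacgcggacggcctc
Nr1d1: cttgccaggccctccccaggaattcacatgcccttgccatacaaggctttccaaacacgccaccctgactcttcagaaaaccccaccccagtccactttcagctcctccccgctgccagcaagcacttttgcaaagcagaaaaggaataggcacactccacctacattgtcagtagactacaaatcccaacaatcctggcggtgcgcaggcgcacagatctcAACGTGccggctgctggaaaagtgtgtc
Ciart: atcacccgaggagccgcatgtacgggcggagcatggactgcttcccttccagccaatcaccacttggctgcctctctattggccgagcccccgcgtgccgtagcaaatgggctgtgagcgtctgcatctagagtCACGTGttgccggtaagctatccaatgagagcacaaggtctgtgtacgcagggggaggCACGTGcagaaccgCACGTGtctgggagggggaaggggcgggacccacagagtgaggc
The motifs searched on both strands were the E-box CACGTG, the E-prime box CACGTT, the D-box TTATGNAA, the ROR elements TAGGTCA and TGGGTCA, and the cyclic AMP response element TGACGTCA, none of which overlap in these promoters. Ciart held 3 E-boxes, 116, 58 and 44 bases before the start, a motif present in 6.02% of all 32851 promoters over the same stretch. Per1 held an E-box 166 bases and a D-box 24 bases before this start, and no match before its other listed start. Per3 held 2 D-boxes, 205 and 158 bases before the start, a motif found in 3.07% of promoters. Nr1d1 had an E-prime box 28 bases before the start, against 3.85% of promoters. Cry1 (1 E-box, 1 E-prime box), Cry2 (1 E-prime box) and Bhlhe41 (1 E-box) also had matches, and Nr1d2 had none in this window. A match describes letters and was not tested as a binding site.

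The first question was whether the repressors change with time of day in each set of 16 libraries. After PBS, SPF colon showed a change with time in 9 of the 10 genes (edgeR quasi-likelihood F test, adjusted p under 0.05), all but Cry1, against 8.90% of the 16938 genes tested. After vancomycin 8 of 10 changed, all but Cry1 and Bhlhe40, against 8.20% of genes. In GF colon Per1, Per3, Nr1d1, Nr1d2 and Ciart changed, 5 of 10, after PBS (0.142% of 16951 genes called) and the same 5 after vancomycin (0.142%). These 5 were called in all 4 sets. DESeq2 called 8 of 10 in each GF set, where it called 403 of the 16951 genes after PBS and 179 after vancomycin.

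**Figure D1:**
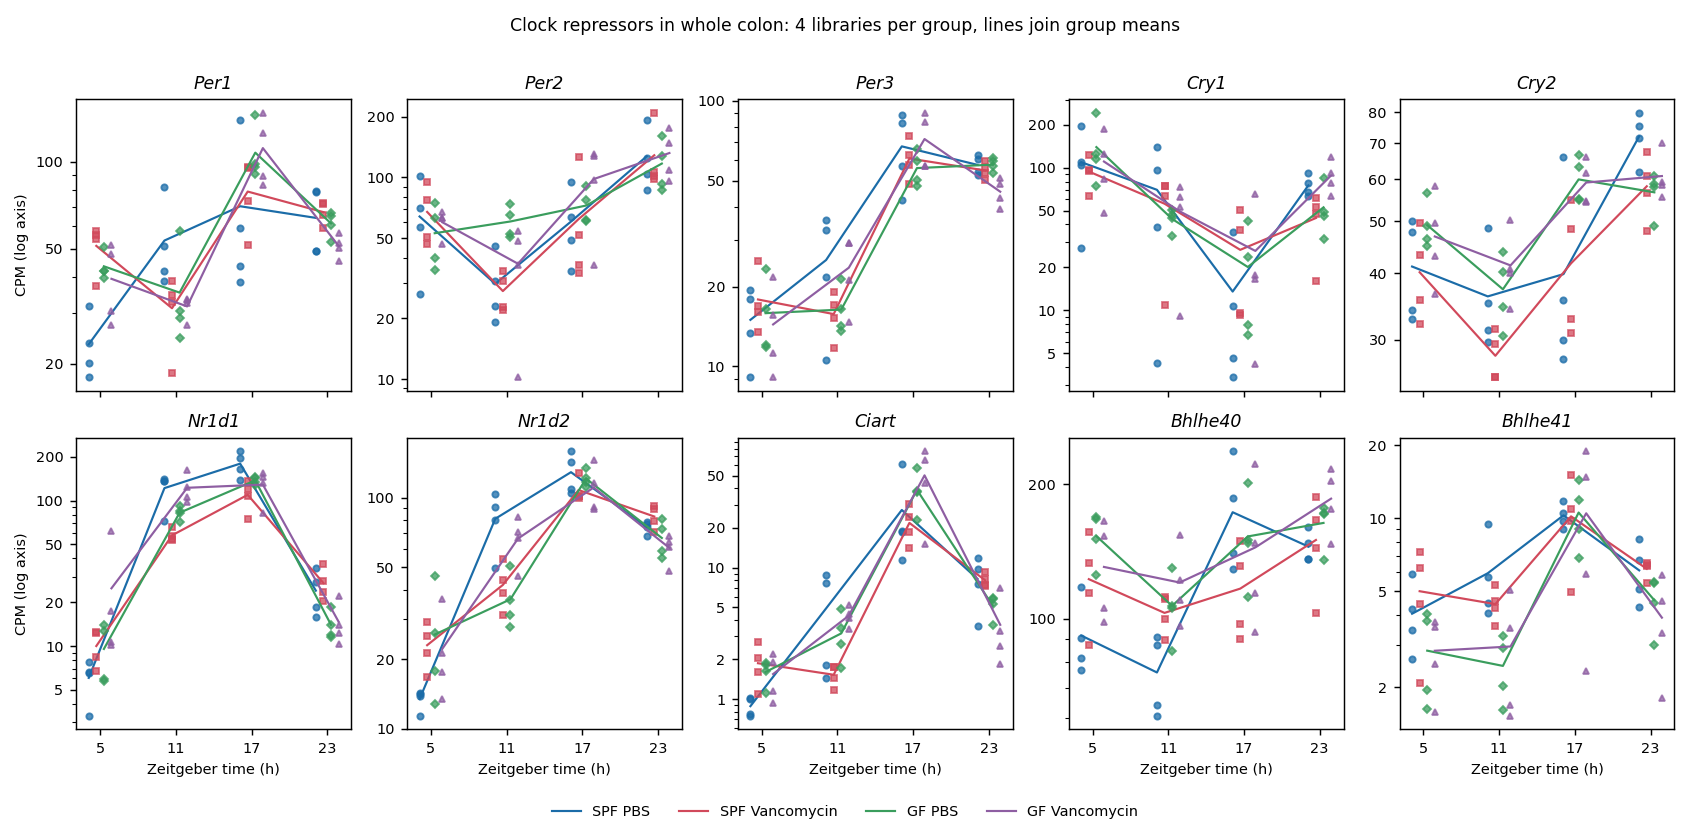
CPM of each of the 10 genes (log axis, a separate scale per gene) against zeitgeber time in hours, 1 point per library and lines joining the means of 4 libraries for each status and treatment. Nr1d1, Nr1d2, Ciart, Per1 and Per3 were highest at ZT17 or ZT23, and Cry1 was highest at ZT5.

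Nr1d1 encodes REV-ERBα, the main repressor of Bmal1. Its CPM in SPF colon after PBS was 6.62, 7.72, 3.32 and 6.5 at ZT5, 141, 137, 136 and 72.7 at ZT11, 139, 219, 164 and 195 at ZT17 and 34.2, 27.7, 15.8 and 18.4 at ZT23. No library at ZT5 or ZT23 reached any library at ZT11 or ZT17, and the mean at ZT17 was 29.6 times that at ZT5 (adjusted p for time = 4.81e-11, edgeR). After vancomycin the values were 6.76, 12.5, 8.44 and 12.3 at ZT5, 54.5, 56.6, 65.7 and 53.7 at ZT11, 107, 74.8, 136 and 120 at ZT17 and 20.3, 36.7, 23.5 and 27.8 at ZT23. The 4 times stood apart from each other, with a ratio of 10.95 between the means at ZT17 and ZT5 (adjusted p = 1.55e-07, edgeR).

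In GF colon Nr1d1 followed the same order of times after PBS. Its CPM was 13.9, 12.6, 5.79 and 5.9 at ZT5, 71.5, 91.5, 84.1 and 82.6 at ZT11, 145, 127, 135 and 143 at ZT17 and 13.9, 11.9, 11.6 and 18.6 at ZT23. ZT11 and ZT17 stood apart from each other and from the low times, while ZT5 and ZT23 overlapped (adjusted p = 2.90e-06, edgeR). After vancomycin the GF values were 10.1, 17.3, 61.6 and 10.7 at ZT5, 98.3, 163, 123 and 105 at ZT11, 155, 131, 146 and 82.7 at ZT17 and 12.3, 13.9, 22.2 and 10.4 at ZT23. Replicate 3 at ZT5, at 61.6, lay above the 3 others of its group, and ZT11 and ZT17 overlapped (adjusted p = 6.95e-05, edgeR). Nr1d1 overlaps Thra on the other strand in GENCODE vM21, and the labels do not state whether counting used strand, so reads from the overlap cannot be told apart. The same holds for Cry2, Ciart, Bhlhe40 and Bhlhe41, each of which overlaps a noncoding or unclassified gene on the other strand. Per3 overlaps the protein-coding gene Camta1 on the same strand, and how reads from that overlap were assigned is not stated.

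Nr1d2 encodes REV-ERBβ, which shares DNA sites with REV-ERBα. In SPF colon after PBS its CPM was 11.4, 14.2, 14.3 and 13.9 at ZT5, 79.7, 90.7, 104 and 49.5 at ZT11, 105, 109, 159 and 142 at ZT17 and 74.7, 68, 76.6 and 78.4 at ZT23. After vancomycin it was 21.3, 28.9, 16.7 and 25.1 at ZT5, 38.8, 54, 43.8 and 31 at ZT11, 102, 102, 99.2 and 128 at ZT17 and 70.7, 91.7, 89.3 and 79.5 at ZT23. Every library at ZT5 was below every library at the other times in both treatments, and the ratio of the means at ZT17 and ZT5 was 9.59 after PBS and 4.69 after vancomycin (adjusted p for time = 5.72e-10 and 1.74e-07, edgeR).
In GF colon after PBS the CPM of Nr1d2 was 26, 45.7, 12.8 and 17.8 at ZT5, 31.1, 36.2, 50.4 and 27.6 at ZT11, 134, 117, 121 and 111 at ZT17 and 58.5, 80.8, 73.4 and 54.8 at ZT23. After vancomycin it was 17.6, 21.2, 36.4 and 13.5 at ZT5, 45.6, 82.5, 71 and 66.8 at ZT11, 116, 146, 89.6 and 90.7 at ZT17 and 64.2, 68.3, 48.3 and 61.4 at ZT23. ZT17 stood above every other time in both (adjusted p = 0.000446 and 0.00173, edgeR), and ZT5 and ZT11 overlapped after PBS but not after vancomycin.

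Ciart, a repressor that recruits histone deacetylase activity to BMAL1-CLOCK, had the largest ratio between its highest and lowest group mean of the 10 genes in all 4 sets, although in SPF colon after PBS this order depended on single libraries. Its CPM there was 0.774, 1.01, 1 and 0.747 at ZT5, 1.81, 8.73, 7.59 and 1.44 at ZT11, 11.4, 18.8, 60.8 and 18.6 at ZT17 and 7.56, 11.8, 3.6 and 9.79 at ZT23. Replicate 3 at ZT17, at 60.8, lay far above the other 3, and the mean at ZT17 was 31.01 times that at ZT5 (adjusted p for time = 2.16e-05, edgeR). Without that library the ratio was 18.4, below that of Nr1d1, and Ciart kept the largest ratio in 12 of 16 leave-one-out recalculations of this set and in all 16 of each other set. After vancomycin the SPF values were 1.61, 1.1, 2.06 and 2.72 at ZT5, 1.17, 1.75, 1.76 and 1.44 at ZT11, 18.6, 24.2, 14.1 and 30.5 at ZT17 and 8.16, 7.24, 9.21 and 7.42 at ZT23, with ZT17 apart from ZT23 and ZT23 apart from both light times (adjusted p = 3.52e-05, edgeR).
In GF colon Ciart was low at all times but ZT17. After PBS it was 57.4, 37.6, 38 and 23 at ZT17, against 1.11 to 5.85 over the other 3 times (adjusted p = 2.21e-07, edgeR). After vancomycin it was 77, 65.4, 43.6 and 15 at ZT17, against 0.936 to 6.98 over the other 3 times (adjusted p = 4.00e-08, edgeR). The value of 15 was replicate 4 of that group, which also had the lowest Bhlhe41, 2.35, of the 4.

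Per3 and Per1 encode PER proteins of the complex that inhibits BMAL1-CLOCK. Both had their highest group means in the dark, but in SPF colon Per1 libraries at dark times overlapped those at light times. Per3 CPM in SPF colon after PBS was 9.12, 13.4, 18 and 19.4 at ZT5, 21.8, 32.6, 35.7 and 10.6 at ZT11, 42.5, 56.7, 88.3 and 82.3 at ZT17 and 52.8, 60.7, 62.4 and 53.9 at ZT23. Every library at ZT17 or ZT23 exceeded every library at ZT5 or ZT11 (adjusted p for time = 6.10e-05, edgeR). This separation of dark from light times was found for Per3 in the other 3 sets too, where the light times ran from 9.09 to 29.2 and the dark times from 39.2 to 90.3 (adjusted p from 9.84e-06 to 4.36e-05, edgeR). Per1 in SPF colon after PBS was 17.9, 23.6, 20.1 and 31.7 at ZT5, 38.7, 51.1, 82 and 41.7 at ZT11, 38.4, 43.4, 140 and 58.9 at ZT17 and 78.6, 49, 49 and 79.2 at ZT23, with the lowest values at ZT5 and a single high library, replicate 3, at ZT17 (adjusted p = 0.0127, edgeR). In GF colon Per1 at ZT17, at 145, 96.3, 98.5 and 90.7 after PBS and 126, 148, 89.1 and 83.3 after vancomycin, lay above every library at the other times (adjusted p = 0.000866 and 0.000103, edgeR). In SPF colon after vancomycin Per1 was called (adjusted p = 0.0345, edgeR), but not when any of 6 single libraries at ZT11 (replicates 1 to 4) or ZT17 (replicates 2 and 4) was left out, nor with colon position as a covariate (0.0606).

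Per2, which encodes another PER protein, peaked later. Its mean in SPF colon was 127 ± 46.6 at ZT23 (SD, n = 4) and 29.7 ± 11.8 at ZT11 after PBS (adjusted p for time = 0.0140, edgeR). After vancomycin the means were 129 ± 53.9 at ZT23 and 27.3 ± 6.01 at ZT11 (adjusted p = 0.00884, edgeR). The PBS call was lost without SPF PBS ZT23 replicate 3, which had 193, and with colon position as a covariate (0.0662). In GF colon Per2 was not called (adjusted p = 0.260 after PBS and 0.105 after vancomycin, edgeR), with means at ZT23 of 117 ± 34.4 and 132 ± 36.2.

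Cry1 and Cry2 encode the cryptochromes, the strongest inhibitors of BMAL1-CLOCK. Cry1 was the member with the widest spread inside groups, a median ratio of 4.66 between the highest and lowest library and 32.7 in SPF PBS ZT11 (97.1, 4.29, 38.5 and 140). Its means in SPF colon after PBS were 109 ± 68.7 at ZT5 (SD, n = 4) and 13.5 ± 14.9 at ZT17, with overlap between neighbouring times, and time did not pass the test (adjusted p = 0.0733, edgeR). It passed without SPF PBS ZT11 replicate 2 or SPF PBS ZT17 replicate 4. Cry1 was also called by DESeq2 and by an edgeR test of a 24 h cosine, 2 of 9 other settings. Over all genes these 2 settings called 2639 and 1961, against 1507 in the main fit. Cry2 was highest at ZT23 in SPF colon after PBS, 61.8, 79.9, 71.7 and 75.3, above every library at ZT5 and ZT11 and 3 of the 4 at ZT17, where replicate 3 had 66.1 (adjusted p = 0.0133, edgeR). Cry2 after vancomycin had a mean of 58.2 ± 8.14 at ZT23 and 28.02 ± 2.96 at ZT11 (adjusted p = 0.0233, edgeR), a call lost when any of 4 single libraries was left out, ZT11 replicates 1 and 4 and ZT23 replicates 1 and 3, and with Y-linked genes as a covariate (0.0595).

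Bhlhe40 and Bhlhe41 encode DEC1 and DEC2, which compete for E-boxes. Bhlhe40 in SPF colon after PBS was 64.3, 87.3, 91.3 and 60.8 at ZT11 and 140, 186, 237 and 129 at ZT17, without overlap (adjusted p for time = 0.00213, edgeR). After vancomycin its values at ZT17 were 97.2, 90.1, 131 and 149 and overlapped those at ZT11, and time did not pass (adjusted p = 0.282, edgeR). Bhlhe41 was highest at ZT17 in all 4 sets, with means from 10.2 to 10.5 CPM there, and was called in SPF colon after PBS (adjusted p = 0.0383, edgeR) and vancomycin (0.0469). The PBS call was kept in 22 and the vancomycin call in 12 of 32 fits that each left out 1 library. Of 9 other settings, 4 kept the PBS call and 2 the vancomycin call of Bhlhe41; both were lost with colon position (adjusted p = 0.0593 and 0.0568, edgeR) and with Y-linked genes (0.0550 and 0.0610) as covariates.

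With the smooth muscle score as a covariate, 7 of the 10 genes stayed called for time in SPF colon after PBS, Cry2 (adjusted p = 0.0772, edgeR) and Bhlhe41 (0.0777) being lost. After vancomycin 5 stayed, Per2, Per3, Nr1d1, Nr1d2 and Ciart. Over all genes the same covariate left 310 of 1507 calls after PBS and 304 of 1389 after vancomycin.

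**Figure D2:**
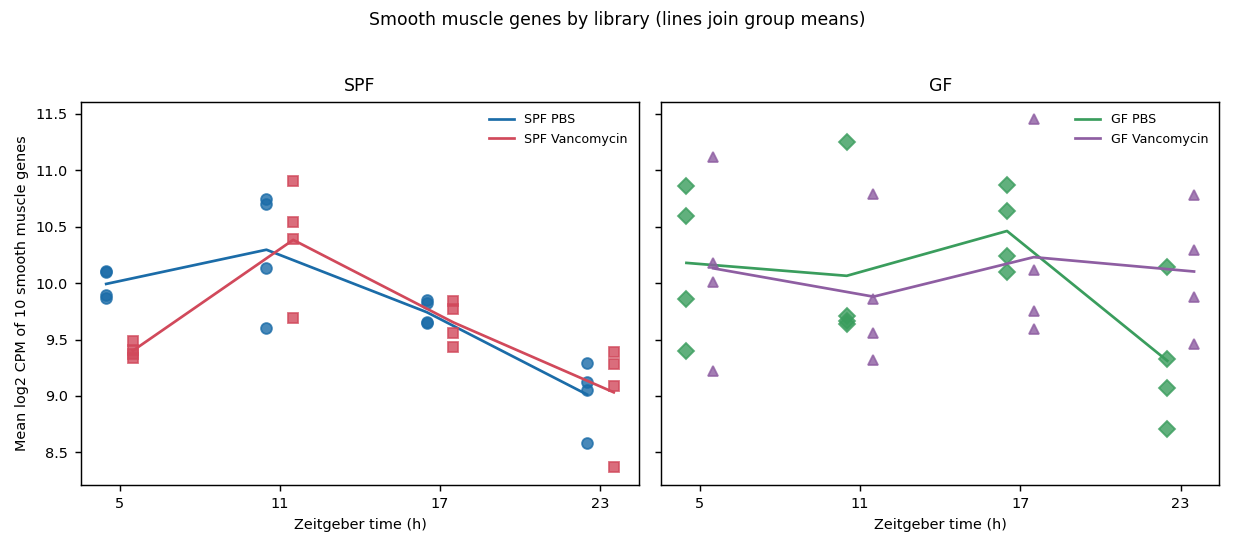
Mean log2 CPM of 10 smooth muscle genes (vertical axis) against zeitgeber time in hours, 1 point per library with lines joining group means. In SPF colon the points at ZT23 lie low, where the summed CPM had medians of 7590 after PBS and 8230 after vancomycin.

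Steps between consecutive times show when the repressors rose and fell. From ZT5 to ZT11 Nr1d1 and Nr1d2 rose in SPF colon, after PBS by 4.33 ± 0.30 (log2, SE) and 2.59 ± 0.20 (0.0590% of genes called) and after vancomycin by 2.53 ± 0.28 and 0.87 ± 0.19 (3.37%). The last of these was kept in 29 of 32 fits that each left out 1 library (lost without SPF Vancomycin ZT5 replicate 1 or 3 or ZT11 replicate 1), and the other 3 in all 32. In GF colon only Nr1d1 passed this step, after PBS (3.11 ± 0.43; 0.00590% of genes), and none did after vancomycin (0%), where 4 of 10 had an unadjusted p under 0.05 (10.1% of all genes did). From ZT11 to ZT17, 4 members rose in SPF colon after PBS (3.58% of genes), 6 after vancomycin (2.92%), 5 in GF colon after PBS (0.142%) and 3 after vancomycin (0.0826%). Ciart and Per3 rose at this step in all 4 sets, Ciart by 2.48 ± 0.49 to 3.83 ± 0.53 and Per3 by 1.42 ± 0.28 to 1.94 ± 0.28 on the log2 scale, and these 8 calls held in all 32 fits without 1 library. The calls least often kept were those of Nr1d1 (13 of 32) and Bhlhe41 (23) in SPF colon after vancomycin, Nr1d2 in SPF colon after PBS (20) and Cry2 in GF colon after PBS (22). Per1 in SPF colon after vancomycin was kept in 29, lost without ZT11 replicate 1 or 3 or ZT17 replicate 4, and Nr1d2 in GF colon after PBS in 30, lost without ZT11 replicate 1 or 4.
Between ZT17 and ZT23, 2 members fell in SPF colon after PBS (0.720% of genes), 1 after vancomycin (0.844%), 2 in GF colon after PBS (0.0472%) and 2 after vancomycin (0.0354%). Nr1d1 was among them in every set, with log2 changes from -3.30 ± 0.43 in GF colon after PBS to -2.02 ± 0.27 in SPF colon after vancomycin, each kept in all 32 fits, whereas Nr1d2 in SPF colon after PBS was kept in 19. From ZT23 to ZT5, 5 members fell in SPF colon after PBS (0.649% of genes), 3 after vancomycin (0.354%), 1 in GF colon after PBS (0.0118%) and 1 after vancomycin (0.00590%). Per3 was among them in every set, with log2 changes from -1.94 ± 0.28 to -1.61 ± 0.28, both in SPF colon; it was lost only in GF colon after vancomycin, without ZT5 replicate 1 or 2. Per1 in SPF colon after PBS was kept in 27 of 32 fits (lost without ZT5 replicates 1, 2 or 3 or ZT23 replicates 1 or 4) and Nr1d1 after vancomycin in 30 (lost without ZT5 replicate 1 or ZT23 replicate 2).

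The second question was whether vancomycin changed the repressors. Averaged over the 4 times, none of the 10 genes differed between vancomycin and PBS in SPF colon by edgeR (0.809% of genes called), and 0 had an unadjusted p under 0.05 (16.2% of all genes did); DESeq2 gave 0. In GF colon none passed either (0%), although Nr1d1 had an unadjusted p under 0.05 (3.96% of all genes); DESeq2 gave 0. At single times in SPF colon edgeR called none at ZT5 (0.0827% of genes), ZT11 (0%), ZT17 (0.319%) or ZT23 (0%), and 3, 6, 2 and 0 of the 10 had an unadjusted p under 0.05, against 14.2%, 9.86%, 8.65% and 7.34% of all genes. By comparison, DESeq2 called 2 at ZT5, Per1 and Nr1d2, and 2 at ZT11, Nr1d1 and Nr1d2, and 0 at the other times. Over all genes DESeq2 called 240 at ZT5, 102 at ZT11, 147 at ZT17 and 42 at ZT23. In GF colon edgeR called none at any of the 4 times (0% at each), where 1, 2, 0 and 0 had an unadjusted p under 0.05 (3.58%, 4.91%, 4.47% and 12.1% of all genes); DESeq2 gave 0 throughout.

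The median log2 difference of the 10 genes in SPF colon was 0.37 at ZT5, -0.55 at ZT11, -0.084 at ZT17 and 0.020 at ZT23. In GF colon it was -0.10, 0.22, 0.022 and -0.036 at the same times, and the medians over all genes tested in these comparisons lay between -0.0099 and 0.023.

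**Figure D3:**
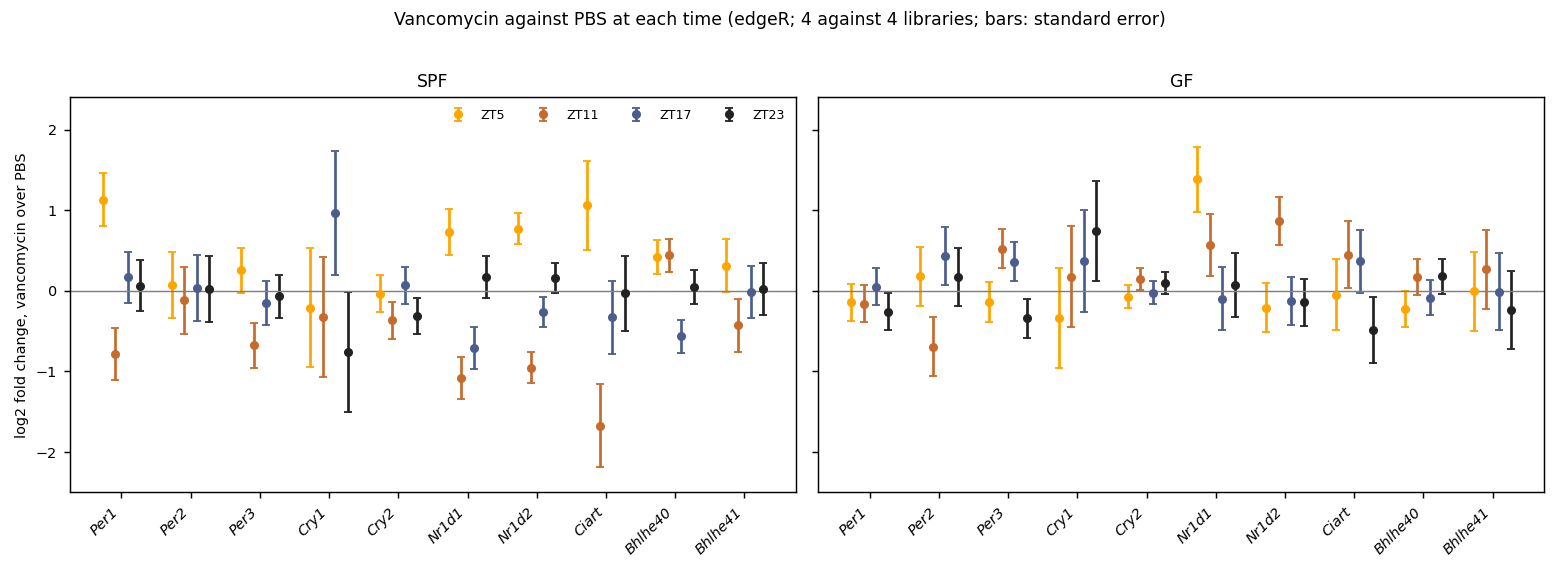
log2 fold change of vancomycin over PBS for each gene at each of the 4 times (edgeR, 4 against 4 libraries, bars the standard error), SPF left and GF right. In SPF colon Nr1d2 lies at 0.77 at ZT5 and at -0.95 at ZT11, and in GF colon it lies at 0.87 at ZT11.

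Whether the vancomycin difference depended on time was tested next. In SPF colon Nr1d2 was the only member whose difference changed with time (adjusted p = 0.00790, edgeR; 0.360% of genes called). Its log2 difference, vancomycin over PBS, was 0.77 ± 0.19 (SE) at ZT5, -0.95 ± 0.19 at ZT11, -0.26 ± 0.19 at ZT17 and 0.15 ± 0.19 at ZT23. At ZT5 all 4 vancomycin libraries (16.7 to 28.9 CPM) were above all 4 PBS libraries (11.4 to 14.3). At ZT11, 3 of 4 PBS libraries (79.7 to 104) were above all vancomycin libraries (31 to 54), while PBS replicate 4, at 49.5, lay among them. The call was kept in 32 of 32 fits without 1 library. The smooth muscle sum also differed between treatments at ZT5 (13100 to 15700 CPM after PBS, 8960 to 9960 after vancomycin), and with that score as a covariate the adjusted p for Nr1d2 was 0.0167 (edgeR). With edgeR, Nr1d2 at ZT11 alone passed without SPF PBS ZT11 replicate 4 (adjusted p = 0.0025), as did Nr1d1 (0.0317). Nr1d2 also passed there without SPF Vancomycin ZT11 replicate 2 (0.0235) or replicate 3 (0.0269). Over all genes, fits without 1 library called 0 to 109 at ZT11 in SPF colon, against 0 in the full fit.

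Nr1d1 differed in the same directions in SPF colon, 0.73 ± 0.28 at ZT5 and -1.08 ± 0.26 at ZT11 on the log2 scale, and its dependence on time did not pass (adjusted p = 0.0588, edgeR; 0.00137 by DESeq2). Ciart differed by 1.06 ± 0.55 at ZT5 and -1.67 ± 0.51 at ZT11 (adjusted p for the dependence = 0.346, edgeR). Per1 differed by 1.13 ± 0.32 at ZT5 and -0.78 ± 0.32 at ZT11 (adjusted p = 0.232, edgeR). In GF colon no member's difference depended on time (0% of genes called), while 1 of 10 had an unadjusted p under 0.05 (8.29% of all genes) and DESeq2 gave 0. There Nr1d2 differed by -0.21 ± 0.30 at ZT5 and 0.87 ± 0.30 at ZT11.

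**Figure D4:**
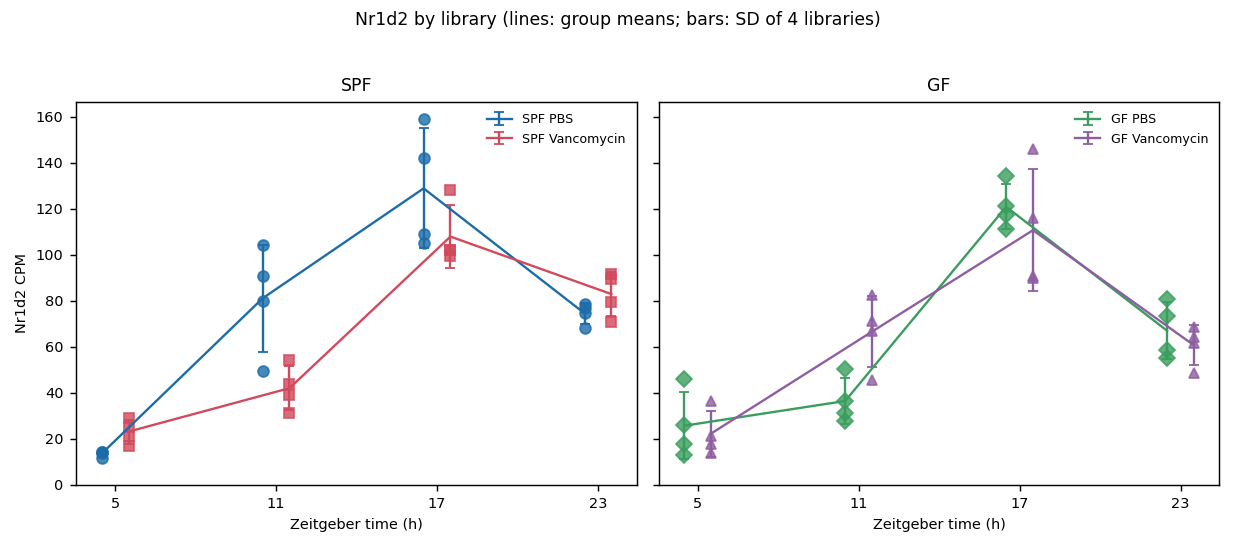
Nr1d2 CPM (linear axis from 0) against zeitgeber time in hours, 1 point per library, lines joining group means with bars of 1 SD (n = 4). At ZT11 the SPF means were 81.1 after PBS and 41.9 after vancomycin, and the GF means were 36.3 after PBS and 66.5 after vancomycin.

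Joint fits asked whether time profiles or vancomycin differences differed between SPF and GF colon. In a fit of all 64 libraries only Nr1d2 had a time profile after PBS that differed by status (adjusted p = 0.0361, edgeR; 0.120% of 16604 genes called). This call was lost in each of the 4 fits that left out 1 replicate number from every group (adjusted p from 0.0525 to 0.430) and with colon position as a covariate (0.0614), as well as with no filter on low counts. After vancomycin none differed by edgeR (0.151% of genes), with 3 of 10 at an unadjusted p under 0.05 against 16.6% of all genes. Averaged over times, no vancomycin difference depended on status (0% of genes called), with 1 of 10 at an unadjusted p under 0.05 (9.94% of all genes). The dependence of the vancomycin difference on time differed between SPF and GF colon for Nr1d2 alone (adjusted p = 0.0260, edgeR; 0.0723% of genes), a test added after the SPF and GF results were known. It was kept only in the fit without replicate 3 of the 4 fits without a replicate number (adjusted p from 0.00838 to 0.579), and it was lost with Y-linked genes as a covariate (0.0545).

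Peak times were described by a 24 h cosine fitted to the log2 CPM of the 16 libraries of a set, which 4 times 6 h apart define only roughly. In SPF colon after PBS the fitted peaks ran from 15.3 ± 0.29 h of zeitgeber time (SE) for Nr1d1 through 16.9 ± 0.47 h for Nr1d2, 17.8 ± 0.52 h for Ciart and 19.1 ± 0.56 h for Per3 to 23.05 ± 0.78 h for Per2. Cry1 peaked at 3.95 ± 1.19 h and Bmal1 at 5.40 ± 0.47 h. Nr1d1 had the earliest and Cry1 the latest fitted peak of the 10 genes, counting on from ZT12, in all 4 sets. Nr1d1 had the largest amplitude in SPF colon after PBS, 2.72 ± 0.21 on the log2 scale, against 1.81 ± 0.13 after vancomycin.
The fitted peaks were later after vancomycin than after PBS for 9 of 10 genes in SPF colon and earlier for 9 of 10 in GF colon, a description chosen after the data were seen. The shift exceeded 2 SE for 3 of 10 genes in each status. Its sign held without any 1 library for 8 of the 9 in SPF colon (Per2 reached -0.20 h without SPF PBS ZT5 replicate 4) and for 6 of the 9 in GF colon, where Cry2, Bhlhe40 and Bhlhe41 reached 0.032, 0.39 and 0.20 h without GF Vancomycin ZT5 replicate 4, ZT17 replicate 4 and ZT23 replicate 1. In GF colon 5 of the 10 genes were not called for time after either treatment. With Y-linked genes as a covariate the counts were again 9 of 10 later and 9 of 10 earlier, and the GF difference of Nr1d2 was -1.62 ± 0.72 h. SPF colon held no library low in Y-linked genes, so the SPF count cannot bear on that split. In SPF colon Nr1d2 peaked 1.69 ± 0.57 h later (SE; 1.38 to 1.91 without any 1 library), Ciart 1.39 ± 0.64 h, Per3 0.93 ± 0.63 h and Nr1d1 0.51 ± 0.40 h later. In GF colon the same differences were -1.55 ± 0.69 h for Nr1d2, -0.94 ± 0.68 h for Ciart, -1.45 ± 0.51 h for Per3 and -1.01 ± 0.49 h for Nr1d1. The largest SPF differences were those of Per1 (3.40 ± 1.47 h; GF -0.63 ± 1.11 h) and Bhlhe40 (3.39 ± 1.74 h; GF -0.77 ± 1.98 h). Those over 2 SE were Per1, Nr1d2 and Ciart in SPF colon and Per3, Nr1d1 and Nr1d2 in GF colon. The exceptions in direction were Cry2 in SPF colon, at -0.54 ± 1.29 h, and Per2 in GF colon, at 0.87 ± 1.47 h. The 10 genes share libraries, so these are not 10 independent observations and no test was made over them. Of the other genes called for time after both treatments, 512 of 627 in SPF colon also peaked later after vancomycin (median 1.76 h), and 9 of 10 in GF colon peaked earlier (median -1.35 h). Those 10 GF genes included the clock output factors Dbp and Tef, their antagonist Nfil3, and Klf9. They are therefore not a comparison apart from the clock.

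**Figure D5:**
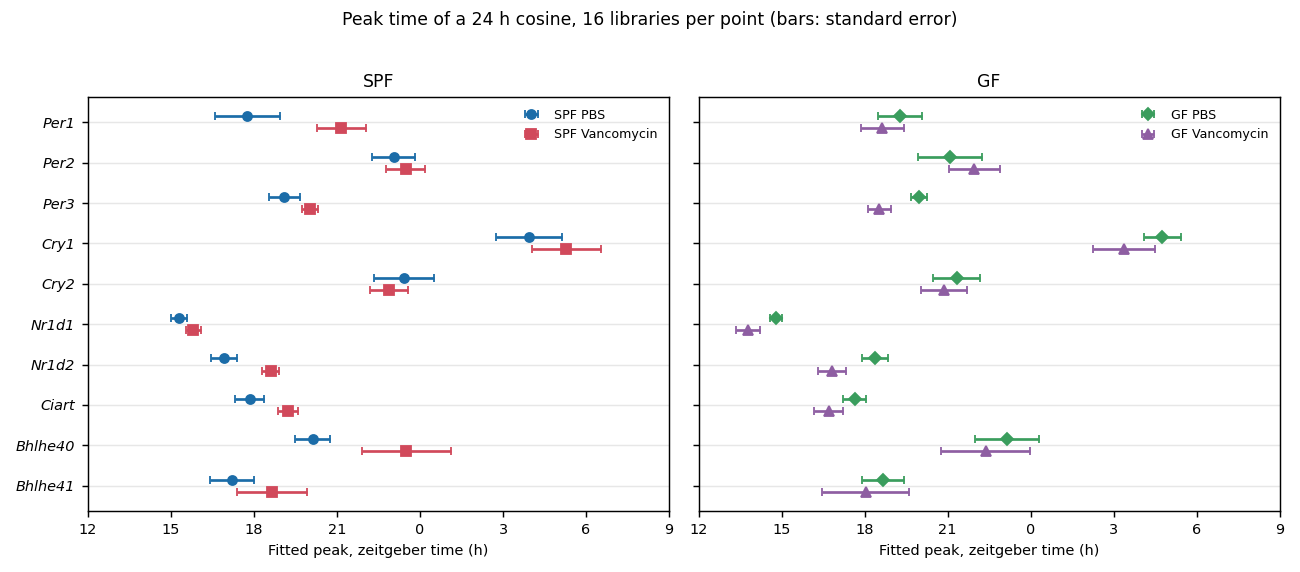
Fitted peak time of each gene in hours of zeitgeber time (horizontal axis, running past midnight of the cycle) after PBS and vancomycin, SPF left and GF right, each from 16 libraries with bars of 1 standard error. In SPF colon the vancomycin points lie to the right of PBS for 9 of 10 genes, and in GF colon to the left for 9 of 10; the difference exceeded 2 SE for 3 genes in each.

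Other genes of the pathway were counted against the shares of all genes called for time, 8.90% and 8.20% in the SPF sets after PBS and vancomycin and 0.142% in each GF set. Of 6 clock activators and ROR receptors, 4 changed with time in SPF colon after PBS, 3 after vancomycin, and 2 in each GF set. Bmal1 (Arntl), the target of the REV-ERB proteins, had a mean of 72.1 ± 12.4 CPM at ZT5 and 19.5 ± 5.64 at ZT17 in SPF colon after PBS (SD, n = 4). These were its highest and lowest means there, and Nr1d1 was lowest at ZT5 and highest at ZT17. The profiles were not opposite at every time. Both means were higher at ZT11 than at ZT23 in SPF colon after vancomycin. Bmal1 was at 55.2 and 22.2 CPM, and Nr1d1 at 57.6 and 27.1. Repression of Bmal1 by REV-ERB proteins was not tested. At ZT11 Bmal1 was 35.1 ± 9.41 after PBS and 55.2 ± 8.02 after vancomycin in SPF colon, and 61.1 ± 4.25 and 46.6 ± 2.38 in GF colon. Of the 4 genes Dbp, Tef, Hlf and Nfil3, PAR bZIP output factors and their antagonist, all but Hlf changed with time in each of the 4 sets. Among 14 kinases, ligases and phosphatases that act on PER and CRY, 4 changed in SPF colon after PBS, 3 after vancomycin, 0 in GF colon after PBS and 1 after vancomycin. The deubiquitinase gene Usp2 was in 3 of these 4 counts. Of 10 partners and corepressors, 1 changed in each SPF set, Cipc, which encodes an inhibitor of CLOCK, and 0 in each GF set, which is near the share of all genes. Glucocorticoid targets changed in 3 of 8 and 2 of 8 cases in SPF colon and 2 of 8 and 1 of 8 in GF colon, Klf9 each time, and Junb was the only one of 8 immediate early genes called, in SPF colon after PBS, again near the share of all genes.

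Over the 16 group means of log2 CPM, each centred on its gene's mean within its table, the genes with profiles most like each repressor were partly clock genes. Per3 was most like Tef (Pearson r = 0.983) and Cipc (0.944), Ciart and Nr1d2 were most like Dbp (0.952 and 0.918), Bhlhe41 was most like Klf9 (0.909), and Per2 had Wee1 (0.896) among its 3 closest, led by Vps13a (0.917). Cry1 was most like Pole (0.932). The closest genes of the remaining members were Tspan4 for Per1 (0.874), Vmn2r60 for Cry2 (0.888), Pgf for Nr1d1 (0.891) and Bach1 for Bhlhe40 (0.888). Tspan4 was also among the 3 closest of Nr1d2 (0.888), Ciart (0.927) and Bhlhe41 (0.898). These correlations are across 16 group means that share libraries by gene and are given as descriptions.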

How the data were processed

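Poly(A) RNA of 64 whole colon samples was sequenced as single-end reads of 75 cycles, per the labels' protocols. The authors deposited 1 table of estimated counts for SPF and 1 for GF mice, not normalized to depth; per the submitters' processing notes, Trim Galore 0.6.2, cutadapt 3.5, Salmon and GRCm39 were used, with settings not stated there. Estimated counts were rounded, and genes with at least 10 counts in at least 4 libraries of a table were kept. Each table was scaled by TMM and fitted with edgeR 4.0.16 (R 4.3.3) as 8 groups of 4 libraries, using quasi-likelihood F tests with Benjamini-Hochberg adjustment over all genes and a threshold of 0.05. Differences between SPF and GF effects came from a joint fit of 64 libraries on 16604 genes. The labels do not tie libraries to separate mice, so p-values cover only the variation among libraries, which may be partly technical. It was not only technical in GF groups that Y-linked genes split. In GF PBS ZT17, for instance, their mean log2 CPM was 5.96 in replicate 3 and 0.746 in replicate 4. DESeq2 1.42.0 and other settings were alternatives; the 3-way test, thinning, the 24 h peak differences with their Y-linked covariate, and ratios without 1 library were chosen after the data were seen. On simulated SPF counts, 164 of 200 genes changed 4-fold at ZT17 were called among 16938 by the vancomycin test at that time. The treatment by time test called 139 of 200 in SPF and 123 of 200 in GF counts. Changes smaller than 4-fold were not simulated. Named genes were the 10 members, the genes of the pathway lists that passed, and the 3 most alike by correlation of group means. The members and lists were chosen with earlier results of these data known.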

Additional observations from a re-analysis of the deposited data

Results flagged for a closer look

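Of 160 groups of 4 values (10 genes in 16 groups), 10 held a library far from the other 3, where chance flags about 1 in 20. In SPF colon after PBS these were Nr1d2 at ZT5 replicate 1 (11.4 CPM, the others 13.9 to 14.3), Nr1d1 at ZT11 replicate 4 (72.7, the others 136 to 141) and Ciart at ZT17 replicate 3 (60.8, the others 11.4 to 18.8). In SPF colon after vancomycin they were Per1 at ZT5 replicate 1 (37.1, the others 54.1 to 57.4), Nr1d2 at ZT17 replicate 4 (128, the others 99.2 to 102), Per2 at ZT23 replicate 3 (209, the others 97.7 to 106) and Bhlhe41 at ZT23 replicate 2 (5.39, the others 6.36 to 6.52). In GF colon after PBS they were Per1 at ZT17 replicate 1 (145, the others 90.7 to 98.5) and Bhlhe40 at ZT23 replicate 4 (135, the others 171 to 177). In GF colon after vancomycin Nr1d1 at ZT5 replicate 3 stood apart (61.6, the others 10.1 to 17.3).

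Nr1d2 differed between groups in 3 edgeR tests. Its vancomycin difference depended on time in SPF colon (adjusted p = 0.00790), a call kept in all 32 fits without 1 library. Its time profile after PBS differed between SPF and GF colon (adjusted p = 0.0361), but in none of the 4 fits without a replicate number (0.0525 to 0.430), nor with colon position as a covariate or with no filter on low counts. The dependence on time itself differed between SPF and GF colon (adjusted p = 0.0260, a test chosen after the data were seen), kept in 1 of the 4 fits without a replicate number and lost with Y-linked genes as a covariate (0.0545).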

How the results depend on the processing

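Counts of members are given as main against alternative. With DESeq2, time-of-day calls went from 5 to 8 in each GF set, steps from 13 to 20 in SPF PBS and from 6 to 11 in GF Vancomycin, the SPF treatment by time count from 1 to 2, and vancomycin at ZT5 and at ZT11 in SPF from 0 to 2 each. Over all genes, DESeq2 took the SPF treatment by time calls from 61 to 205. It took time-of-day calls from 1507 to 2639 in SPF PBS and from 24 to 179 in GF Vancomycin. Step counts over all genes under the alternatives are not given here, so changes in the members' step counts are not read as particular to them. Its SPF vancomycin calls over all genes went from 14 to 240 at ZT5 and from 0 to 102 at ZT11. With the smooth muscle covariate, time-of-day calls in SPF Vancomycin went from 8 to 5. The status by time count after PBS went from 1 to 0 with the colon position covariate and with no low-count filter, and the status by treatment by time count from 1 to 0 with the Y-linked covariate; the cause was not tested. Leaving out replicates gave 7 to 10 time-of-day calls in SPF PBS, 5 to 8 in SPF Vancomycin and 5 to 6 in each GF set; 10 to 14, 8 to 13, 7 to 10 and 5 to 9 steps in SPF PBS, SPF Vancomycin, GF PBS and GF Vancomycin; 1 to 2 treatment by time calls in SPF; 0 to 2 vancomycin calls at ZT11 in SPF; 0 status by time calls after PBS; and 0 to 1 status by treatment by time calls. Replicate numbers did not pair samples (mean correlation of same-numbered deviations 0.0293 in SPF and -0.0344 in GF), and with the replicate block Nr1d2 had an adjusted p of 0.00966 for treatment by time in SPF, while Bhlhe41 was not called for time in SPF PBS (0.0570) or SPF Vancomycin (0.0786). DESeq2 was not run on the joint fit.

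Over all genes, time-of-day calls in SPF PBS numbered 1507, against 310 with the smooth muscle covariate, 487 with colon position, 2639 with DESeq2 and 672 to 1933 without 1 library. In SPF Vancomycin the same values were 1389, 304, 816, 2254 and 811 to 1729. The GF sets had 24 calls each, against 403 and 179 with DESeq2. Vancomycin over all times in SPF gave 137 calls, against 55 with the Y-linked covariate, 493 with DESeq2 and 47 to 521 without 1 library. At ZT11 in SPF it gave 0 calls, against 102 with DESeq2 and 0 to 109 without 1 library. With counts thinned to the smallest total of each table, time-of-day calls of members went from 8 to 7 in SPF Vancomycin (Bhlhe41 lost, adjusted p = 0.0518) and stayed at 9, 5 and 5 in SPF PBS, GF PBS and GF Vancomycin.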
